A study of Mus musculus with 6 samples.

Results

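The Schlafen genes Slfn1, Slfn2, Slfn3, Slfn4, Slfn5 and Slfn8 were followed across 3 activation states of mouse bone marrow-derived macrophages of 2 genotypes. These 6 gene names, of 27361 on the array, were chosen by name after earlier results of the same arrays were known, so the tests given here describe these arrays and are not independent support. Each gene was represented by the probe selected on its signal, the brightest by its mean over the 6 arrays. All 6 genes were among the 19048 names tested, those with a probe that 2 or more of the 6 arrays measured well above background.

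RNA was hybridised to one-colour Agilent arrays, with 1 array for each genotype and state and 6 arrays in all. Control macrophages, called WT, were of the genotype FoxO1 Fl/Fl and carried the floxed alleles without Cre. Knockout macrophages, called KO, were LysMcre FoxO1 Fl/Fl and differed from the controls by both the loss of Foxo1 and the presence of Cre, which cannot be told apart. LysM is a promoter active in myeloid cells. All cells came from C57BL/6 bone marrow cultured for 7 days with 10% L929-conditioned medium, and no age of the animals was found in the labels. M0 cells were left untreated. For 24 h, M1 cells were given lipopolysaccharide (LPS) at 100 ng/ml with interferon-gamma at 20 ng/ml, while M2 cells were exposed to interleukin-4 and interleukin-13 at 10 ng/ml each. The labels do not say whether the samples came from separate animals, and the p-values then measure only the spread between these samples. With 1 array for each genotype and state, no group has a replicate. The residual spread is then the disagreement of the genotypes on the state differences, which cannot be told apart from array noise.

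Schlafen proteins share a core domain, for which nuclease or RNA-binding activity is known in some members. They fall into short, intermediate and long forms. Slfn1 and Slfn2 are short forms, Slfn3 and Slfn4 are intermediate forms, and Slfn5 and Slfn8 are long forms with a helicase-like carboxy-terminal part. The family was first described in thymocytes, and several of its genes are induced by type I interferon and by LPS in macrophages. In such cells type I interferon acts on the interferon-stimulated response element (ISRE), interferon-gamma acts on the GAS element, and LPS acts through NF-kB.

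The 250 bases upstream of the annotated start are printed for the 3 genes with a motif match there and for Slfn4, which had the largest M1 difference and no match. Capitals mark the match, an ISRE in Slfn5 and Slfn8 and an NF-kB site in Slfn2. Sequences are from RefSeq on GRCm38.p6, at chr11:82951852-82952101 on the plus strand for Slfn5, chr11:83020811-83021060 on the minus strand for Slfn8, chr11:83064862-83065111 on the plus strand for Slfn2 and chr11:83174936-83175185 on the plus strand for Slfn4.
Slfn5: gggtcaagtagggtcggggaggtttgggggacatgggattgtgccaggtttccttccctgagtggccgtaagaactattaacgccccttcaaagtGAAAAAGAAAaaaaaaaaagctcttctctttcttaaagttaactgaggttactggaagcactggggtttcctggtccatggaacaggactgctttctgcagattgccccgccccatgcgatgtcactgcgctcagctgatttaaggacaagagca
Slfn8: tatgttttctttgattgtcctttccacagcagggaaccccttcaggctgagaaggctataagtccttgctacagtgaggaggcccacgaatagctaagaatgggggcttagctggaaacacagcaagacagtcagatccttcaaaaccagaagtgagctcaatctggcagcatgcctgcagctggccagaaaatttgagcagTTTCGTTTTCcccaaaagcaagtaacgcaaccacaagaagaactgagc
Slfn2: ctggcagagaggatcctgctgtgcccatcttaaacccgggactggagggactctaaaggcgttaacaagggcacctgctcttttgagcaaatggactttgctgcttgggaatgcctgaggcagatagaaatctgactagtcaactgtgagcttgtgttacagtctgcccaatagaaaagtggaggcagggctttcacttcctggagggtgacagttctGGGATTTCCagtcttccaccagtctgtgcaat
Slfn4: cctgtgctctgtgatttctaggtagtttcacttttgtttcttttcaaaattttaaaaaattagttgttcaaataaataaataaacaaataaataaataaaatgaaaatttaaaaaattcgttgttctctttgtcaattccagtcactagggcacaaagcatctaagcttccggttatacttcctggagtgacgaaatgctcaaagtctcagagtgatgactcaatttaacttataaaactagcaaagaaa
All 6 genes had a promoter entry, with 7 windows because Slfn8 has 2 annotated starts. The ISRE, searched as GAAANNGAAA on both strands, lay 155 to 146 bases before the start of Slfn5 on the gene's strand, and 48 to 39 bases before the first start of Slfn8 on the opposite strand. These letters were present in 2 of 6 genes and in 2.98% of all 32851 windows of that length. The NF-kB site, searched as GGGANTTCC, was present in Slfn2 at 32 to 24 bases before the start, in 1 of 6 genes and in 1.43% of all windows. GAS as TTCNNNGAA, a STAT6 site as TTCNNNNGAA and a FoxO site as GTAAACA were in none of the 6 genes, against 7.02%, 5.85% and 3.17% of all windows. These matches describe the letters in the windows only, and the absence of a match says nothing about a factor.

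The targeted gene Foxo1 had log2 levels of 1.50, 0.96 and 1.50 on the WT M0, M1 and M2 arrays and of -1.42, -1.82 and -1.15 on the KO arrays, so that every KO array lay below every WT array. Levels throughout are log2 processed signal minus the log2 of the array's 75th percentile of signal. Between 63.1% and 67.9% of the 43379 non-control spots were well above background on each array, and no such spot was saturated. The WT M0 and WT M1 arrays shared slide 1, and the other 4 arrays shared slide 2. Macrophage markers were well above background for 10 of 10 genes on each M0 and M2 array and for 9 of 10 on each M1 array. All 5 M1 markers were called higher in M1 than in M0, and all 5 M2 markers lower in M1 than in M2. Against M0, 0 of 5 M2 markers were called higher in M2, although their median difference was 6.22. The M2 marker Arg1 was also called higher in M1 than in M0 (4.81, limma adjusted p = 0.03243). The number of arrays limits the precision of every value: differences between 2 arrays have no replicate, and differences with a standard error (SE) come from a limma fit with terms for state and genotype over all 6 arrays (n = 2 per state, 3 per genotype).

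All 6 Schlafen genes rose in M1 macrophages, from 2.51-fold for Slfn5 to 303-fold for Slfn4 in the fit over both genotypes. Both M1 arrays lay above both M0 arrays and both M0 arrays lay above both M2 arrays for 6 of 6 genes, an order that 5.84% of all tested genes showed. In bulk samples, fewer cells of a type and less RNA per cell cannot be told apart.

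**Figure D1:**
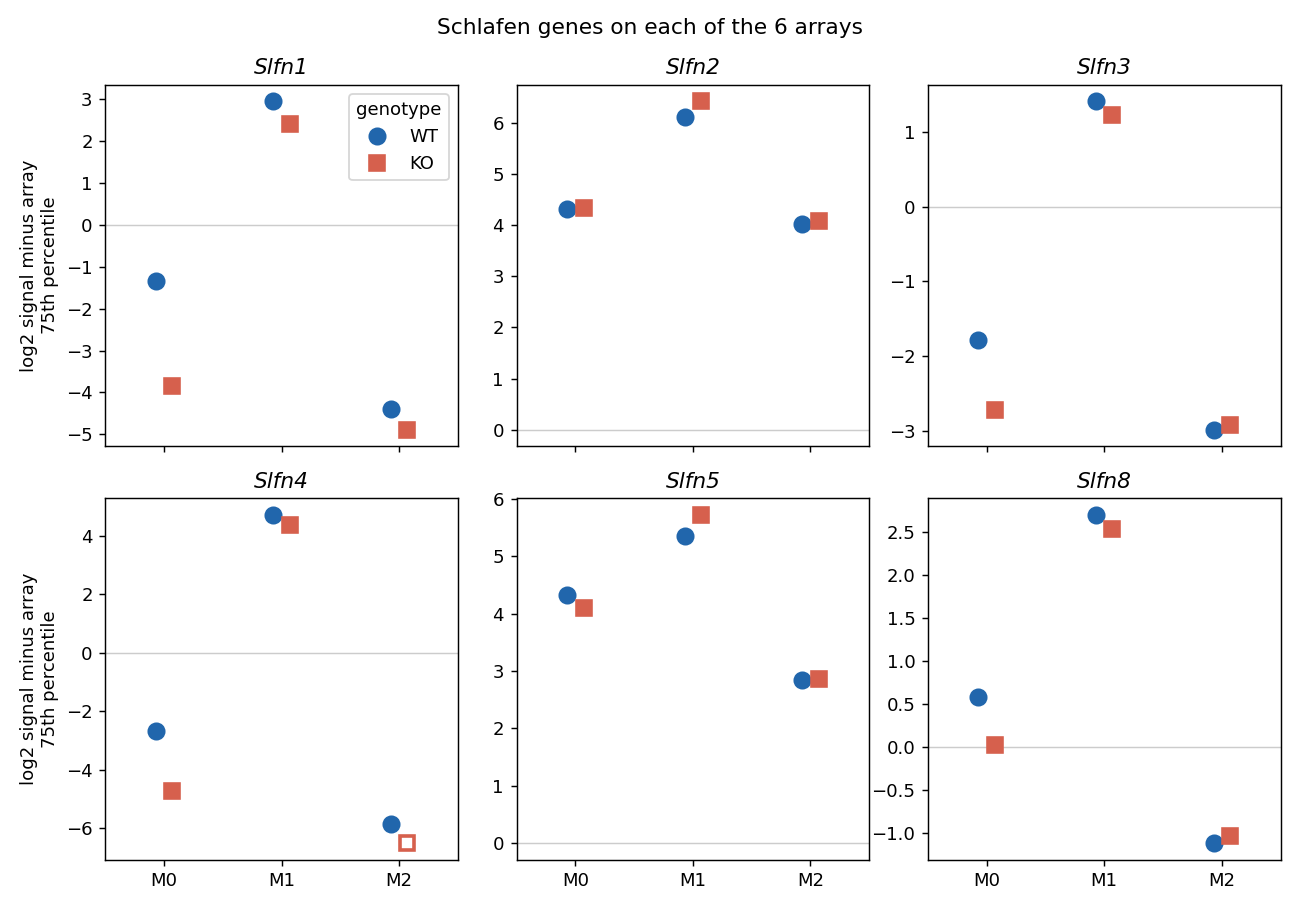
Log2 level of each Schlafen gene, relative to the array's 75th percentile, on each of the 6 arrays, with M0, M1 and M2 on the horizontal axis, WT as circles and KO as squares. The open square of Slfn4 marks the KO M2 array, where the probe was not well above background; each panel has its own vertical scale, and in all 6 panels the M1 arrays are highest and the M2 arrays lowest.

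Among the short forms, Slfn1, known for restraining T cell growth, had log2 levels of -1.35, 2.95 and -4.40 on the WT M0, M1 and M2 arrays and of -3.85, 2.41 and -4.89 on the KO arrays. It was high only on the M1 arrays, and the 2 genotypes lay furthest apart in M0. The M1 minus M0 difference was 5.28 ± 0.60 (log2, SE; limma, Benjamini-Hochberg adjusted p = 0.01387).
Slfn2, whose loss in mice leads to failing T cell and monocyte quiescence, had levels of 4.32, 6.12 and 4.03 in WT and of 4.33, 6.42 and 4.08 in KO. Its M0 and M2 arrays lay within 0.30 of each other and its M1 arrays stood clear of both. Its M1 minus M0 difference was 1.95 ± 0.17 (limma adjusted p = 0.009634), with 3.48-fold in WT and 4.27-fold in KO.

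Among the intermediate forms, Slfn3, studied in intestinal epithelial differentiation, had levels of -1.78, 1.41 and -2.99 in WT and of -2.73, 1.22 and -2.93 in KO. The KO M0 array was close to both M2 arrays, whereas the WT M0 array lay above them. The M1 minus M0 difference was 3.57 ± 0.30 (limma adjusted p = 0.009427).
Slfn4, a gene known for its induction by Toll-like receptor ligands and interferon in myeloid cells, had levels of -2.69, 4.71 and -5.83 in WT and of -4.73, 4.36 and -6.51 in KO. In processed signal these were 82.8, 15433 and 9.68 in WT and 22.6, 11949 and 6.91 in KO, the last not well above background. The M1 minus M0 difference of 8.24 ± 0.48 (limma adjusted p = 0.007102) was the largest of the 6, and corresponded to 169-fold in WT and 544-fold in KO. As measured, the KO M1 signal was 1861-fold and the KO M0 signal 3.42-fold above the KO M2 signal. Both ratios are uncertain, because the KO M2 probe was not well above background.

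Among the long forms, Slfn5, a nuclear protein, had levels of 4.32, 5.36 and 2.85 in WT and of 4.10, 5.72 and 2.86 in KO. The M0 arrays lay between M1 and M2 in both genotypes, and the 2 M2 arrays were nearly level. Its M1 minus M0 difference was the smallest of the 6 at 1.33 ± 0.21 (limma adjusted p = 0.02399).
Slfn8 had levels of 0.58, 2.70 and -1.12 in WT and of 0.02, 2.54 and -1.04 in KO. It followed the same order, with a M1 minus M0 difference of 2.32 ± 0.22 (limma adjusted p = 0.01083).

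With limma and Benjamini-Hochberg adjustment, 6 of 6 genes were called higher in M1 than in M0, against 11.5% of all tested genes. The members' median M1 minus M0 difference was 2.95 and that of all tested genes 0.03. All 6 were at least 2-fold higher in each genotype separately, as were 8.96% of all genes. Slfn5 in WT fell short of 2-fold with the authors' deposited values (0.63), quantile normalization (0.65) and normexp background correction (0.63, all log2). Leaving out any 1 of the WT M0, WT M1, KO M0 or KO M1 arrays left 0 of 6 members and 0 of 19048 genes called, with all 6 members still at an unadjusted limma p below 0.05. The lowest adjusted p of a member was then 0.0649 to 0.1006.

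**Figure D2:**
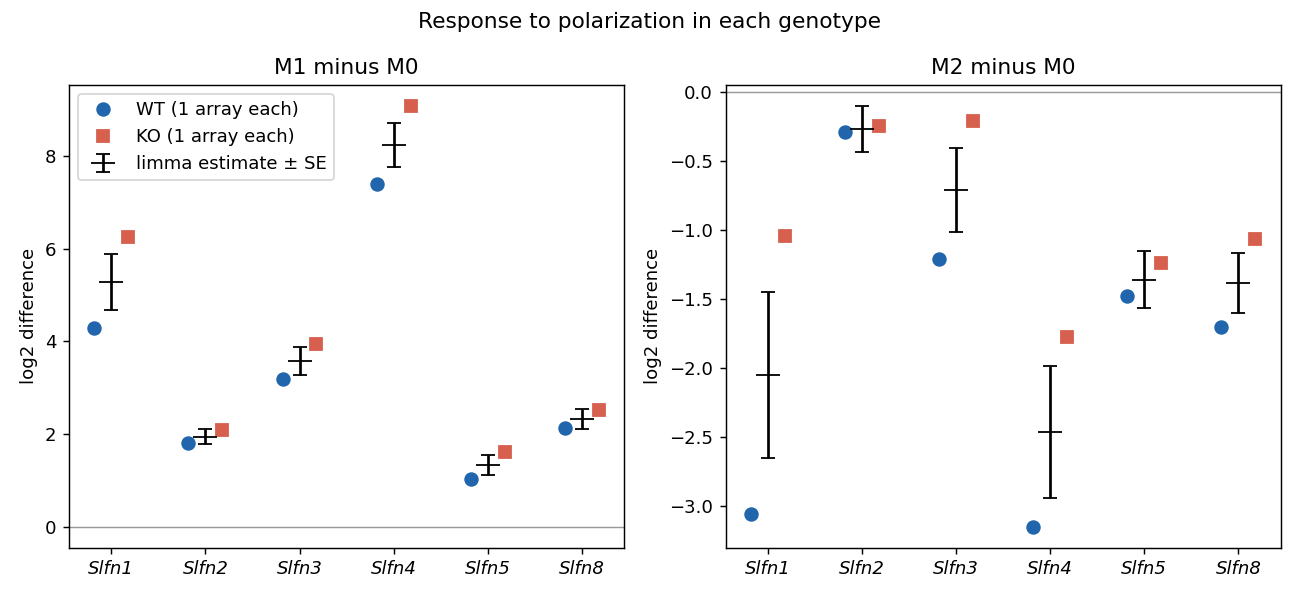
Log2 difference of M1 from M0 (left) and of M2 from M0 (right) for the 6 Schlafen genes, with circles for WT, squares for KO (1 array against 1 array each) and the limma estimate over both genotypes with its SE as a bar. M1 differences are above 0 for every gene, from 1.04 for Slfn5 in WT to 9.09 for Slfn4 in KO, and M2 differences are below 0 for every gene.

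Between the 2 treated states, M1 against M2, all 6 genes were again called higher in M1, against 11.6% of all tested genes. The difference ranged from 2.21 for Slfn2 (limma adjusted p = 0.00728) to 10.70 for Slfn4 (limma adjusted p = 0.00548), the latter resting on a KO M2 value that was not well above background. Slfn1 differed by 7.33 (limma adjusted p = 0.007773), Slfn3 by 4.28, Slfn8 by 3.71 and Slfn5 by 2.69. Without the WT M1 array or the KO M1 array 0 of 6 were called, with lowest adjusted p of 0.0539 and 0.0564.

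In M2 macrophages the members lay below M0 on every pair of arrays, and the difference did not pass the adjusted test for any of them. The limma estimates were -2.46 ± 0.48 for Slfn4 (adjusted p = 0.1344, with a KO M2 value not well above background), -2.05 ± 0.60 for Slfn1 (0.2145), -1.38 ± 0.22 for Slfn8 (0.1103), -1.36 ± 0.21 for Slfn5 (0.1058), -0.71 ± 0.30 for Slfn3 (0.3147) and -0.27 ± 0.17 for Slfn2 (0.4259). At an unadjusted limma p below 0.05, Slfn1, Slfn4, Slfn5 and Slfn8 were lower in M2, as were 9.31% of all tested genes. At the adjusted threshold, 0.0210% of all genes were called lower in M2 and 16 genes were called in either direction. The members' median was -1.37 and that of all tested genes 0.08.

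Slfn1, Slfn4, Slfn5 and Slfn8 were at least 2-fold lower in M2 in each genotype, 4 of 6 members against 3.23% of all tested genes. For Slfn1 the difference was -3.06 in WT and -1.04 in KO. For Slfn4 it was -3.15 in WT and, as measured, -1.77 in KO, with a KO M2 value not well above background. For Slfn5 it was -1.47 and -1.24, and for Slfn8 -1.70 and -1.06. With normexp background correction only Slfn5 stayed past 2-fold in both genotypes, at -1.59 in WT and -1.26 in KO. The KO differences were then -0.38 for Slfn1, -0.26 for Slfn4 and -0.85 for Slfn8. The WT M2 and WT M0 arrays were on different slides, whereas the KO pair shared a slide, so the slide and the WT difference cannot be told apart. The call depended on the processing: letting the variance prior follow intensity called Slfn4, Slfn5 and Slfn8 lower (limma adjusted p = 0.03151, 0.01172 and 0.01639), normexp called Slfn5 and Slfn8 (0.02153 and 0.03898), and median scaling called Slfn4 (0.04014).

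Between genotypes, none of the 6 genes passed the test in the fit over the 3 states, and 0% of all 19048 genes passed the limma adjusted threshold in either direction. The KO minus WT estimates ran from -1.18 ± 0.49 for Slfn1 (limma adjusted p = 0.4692) and -1.03 ± 0.39 for Slfn4 (0.4543) to 0.12 ± 0.14 for Slfn2 (0.7023). Slfn3 was at -0.36 ± 0.25, Slfn8 at -0.21 ± 0.18 and Slfn5 at 0.05 ± 0.17. At an unadjusted limma p below 0.05 the count of members lower in KO was also 0 of 6, against 4.50% of all tested genes. That count was 2 of 6 with median scaling, 2 with an intensity trend in the prior and 1 with the authors' deposited values. Without the WT M0 or the KO M0 array the estimates of Slfn1 and Slfn4 were -0.51 and -0.52, and with normexp -0.58 and -0.37. With a slide term they were -0.49 and -0.67. These equal the M2 differences of 1 KO array from 1 WT array, because only the M2 pair shared a slide. The KO M2 value of Slfn4 was not well above background. The loss of Foxo1 itself had a limma adjusted p of 0.3052, the lowest reached by any gene, so it was not called by this fit either.

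State by state, the genotypes stood furthest apart in M0 for Slfn1, Slfn3, Slfn8 and, as measured, Slfn4, and in M1 for Slfn2 and Slfn5. For these last genes the state depended on the processing. The M0 and M1 differences of Slfn5 were -0.25 and 0.04 with median scaling, -0.29 and 0.23 with quantile normalization, and -0.33 and 0.19 with normexp. On its second probe they were -0.73 and -0.06. With median scaling Slfn2 stood furthest apart in M2, at 0.14. The KO minus WT difference of Slfn1 was -2.51 (log2) in M0, against -0.54 in M1 and -0.49 in M2. That of Slfn4 was -2.05 in M0, against -0.36 in M1 and, as measured, -0.67 in M2. The KO M2 probe was not well above background, and with normexp background correction the M2 difference was -0.005. These 2 of 6 genes were at least 2-fold lower on the KO M0 array, as were 4.25% of all tested genes.
In the order M0, M1, M2, Slfn3 differed by -0.95, -0.19 and 0.06, and Slfn8 by -0.56, -0.16 and 0.08. Slfn5 differed by -0.22, 0.36 and 0.02, and Slfn2 by 0.01, 0.30 and 0.05. As measured, the KO minus WT difference was lower in M0 than in M1 and in M2 for 6 of 6 members, an order shown by 24.5% of all tested genes. For Slfn4 the order of M0 and M2 is not established, because its KO M2 probe was not well above background. In the same order the members' medians were -0.75, -0.18 and 0.04, beside 0.10, 0.13 and -0.05 over all tested genes. With normexp background correction the M0 differences shrank to -1.31 for Slfn1 and -0.74 for Slfn4, so that 1 of them was past 2-fold. Slfn2, near 0 in M0, changed sign with the scaling, at -0.02 with median scaling.

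**Figure D3:**
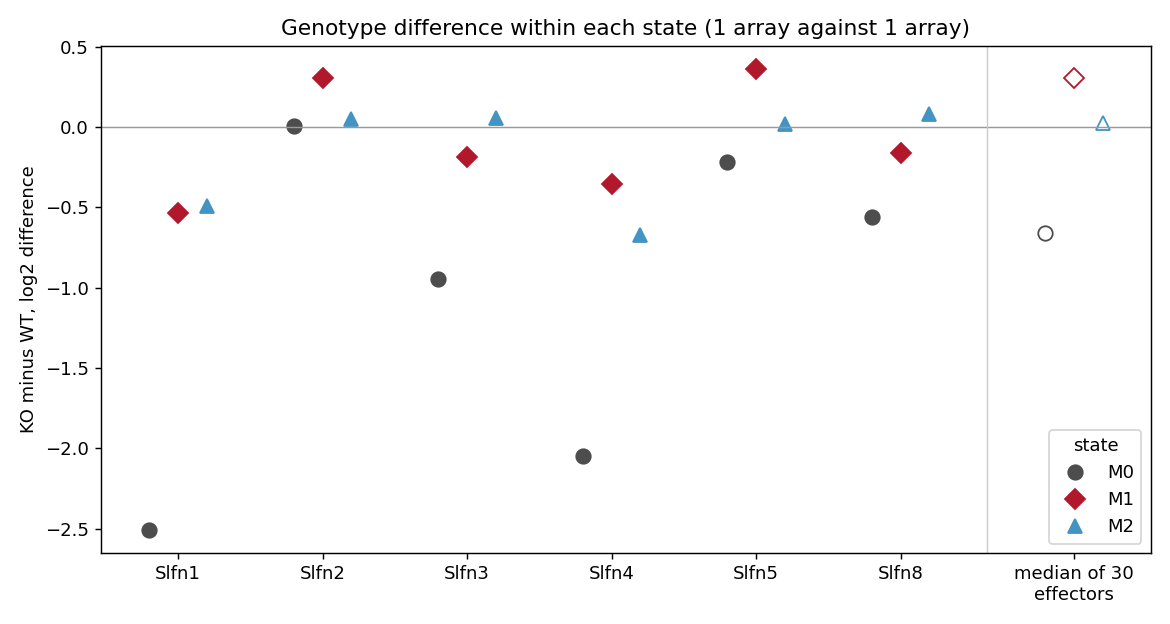
KO minus WT log2 difference of each Schlafen gene in M0 (circles), M1 (diamonds) and M2 (triangles), each 1 array against 1 array, with open symbols for the median of 30 interferon-induced effector genes at right. The M0 points of Slfn1 and Slfn4 lie at -2.51 and -2.05, and all other points lie between -0.95 and 0.36.

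Because all M1 and M2 responses are set against the same M0 array of their genotype, they share those controls. The M1 response of Slfn1 was 4.30 in WT and 6.27 in KO, and that of Slfn4 7.40 and 9.09, differences of 1.97 and 1.69 between genotypes. With normexp the responses lay closer together, at 3.54 and 4.56 for Slfn1 and 6.24 and 6.62 for Slfn4. For the other 4 genes the KO response exceeded the WT response by 0.30 (Slfn2) to 0.76 (Slfn3) in the main analysis. With median scaling the Slfn2 responses were nearly equal, at 2.172 in WT and 2.173 in KO. Those of Slfn3, Slfn5 and Slfn8 also lay closer together with that scaling, with KO still the larger. The share of all tested genes with a larger M1 response in KO was not counted. With 1 array for each genotype and state, these differences between responses were not tested.

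Other RNA moved with the untreated pair as well. Of 9 neutrophil markers on the array, 9 were well above background on the WT M0 array and 8 on the KO M0 array, and all 9 were lower in KO, with a median KO minus WT difference of -2.64. Their summed signal relative to the 75th percentile was 80.8 on the WT M0 array and 5.27 to 25.3 on the other 5 arrays. All 5 monocyte markers were well above background on both M0 arrays and lower in KO, with a median of -1.99 and summed signals of 8.73 and 1.25. Liver genes summed to 28.0 on the WT M0 array and to 0.100 to 1.03 on the others. T and NK cell markers summed to 0.347 on the WT M0 array and 0.631 on the KO M0 array, with Ncr1 well above background on no array, and B cell markers to 1.66 and 0.504, with Pax5 and Blk well above background on no array. In M1, monocyte markers summed to 184 in WT and 72.0 in KO, above the 0.631 to 8.73 of the other 4 arrays, with Ly6c2 among those called higher in M1 than in M0. On the M2 arrays neutrophil markers summed to 25.3 in WT and 5.27 in KO, against 80.8 and 13.6 in M0, and monocyte markers to 2.09 and 0.631. The M0 and M1 genotype pairs also crossed slides, and only the M2 pair shared one. The part of these other cell types and of the slide in the Schlafen differences was not tested.

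Interferon pathway genes gave a reference for the Schlafen values. Of 30 interferon-induced effectors, 29 were called higher in M1 than in M0 by limma, while 11.5% of all tested genes were called higher and 25.6% in either direction. Their median M1 minus M0 difference was 2.98, beside 2.95 for the Schlafen genes. The 3 effectors with the largest differences were Ifi205, a DNA-sensor family gene, at 6.60 ± 0.33 (limma adjusted p = 0.006826), Oasl1, of the oligoadenylate synthetase family, at 6.12 ± 0.43 (0.007903), and Isg15, a ubiquitin-like modifier, at 5.44 ± 0.34 (0.007159). The M1 minus M0 difference of Slfn4 exceeded all 30.

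**Figure D4:**
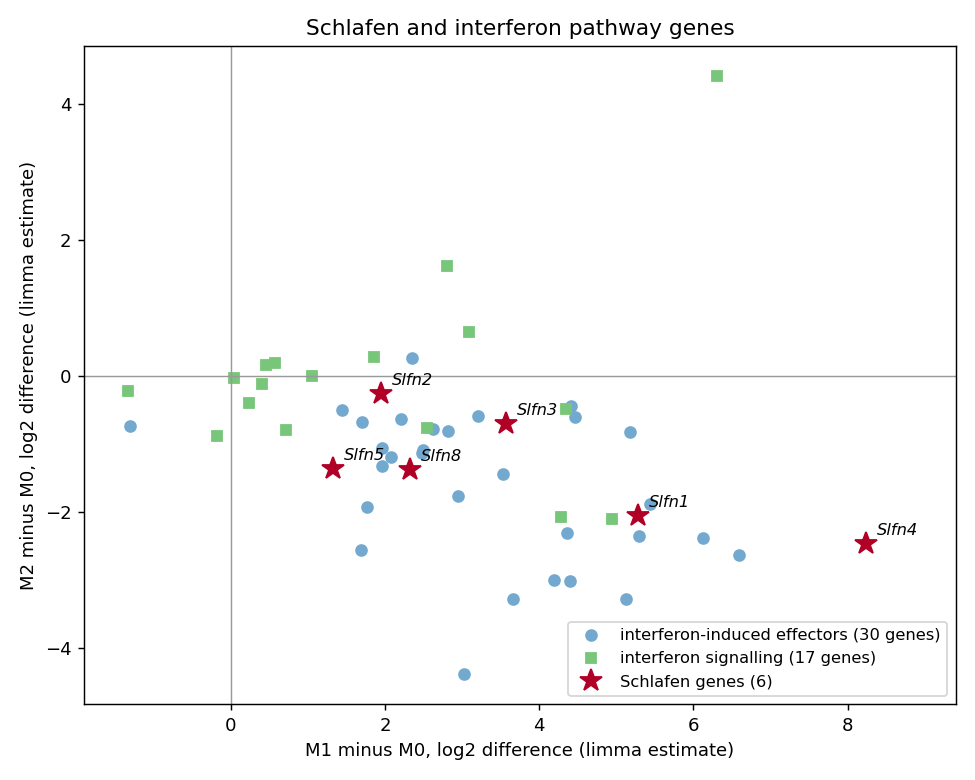
Limma estimates of the M1 minus M0 (horizontal) and M2 minus M0 (vertical) log2 differences for the 6 Schlafen genes (stars), 30 interferon-induced effectors (circles) and 17 interferon signalling genes (squares). The stars lie at M1 differences from 1.33 to 8.24 and at M2 differences from -2.46 to -0.27, at the lower right with most effectors.

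In M2 none of the 30 effectors was called lower than in M0, and their median was -1.25 beside -1.37 for the Schlafen genes. Between genotypes 0 of 30 were called, and their median KO minus WT differences were -0.66, 0.30 and 0.03 for M0, M1 and M2. All 30 effectors lay below 0 in M0, 6 in M1 and 12 in M2, and 5 of 6 Schlafen genes lay below 0 in M0. Over all tested genes the median differences were 0.10, 0.13 and -0.05, and the share below 0 was not counted.

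Of 17 interferon signalling genes, 10 were called higher in M1 and 1, the receptor chain Ifngr1, lower (-1.33), with a median of 1.06. The ligand gene Ifnb1 rose by 4.94 (limma adjusted p = 0.009166) and was well above background on 3 of 6 arrays. The type I receptor genes Ifnar1 and Ifnar2 had differences of 0.24 and 0.41 (limma adjusted p = 0.3361 and 0.1804). Among its transcription factors, these rose: Stat2 by 2.55 (limma adjusted p = 0.01505), Irf9 by 0.72 (0.04899), Irf1 by 3.09 (0.01112) and Irf7 by 4.28 (0.01391). Irf3 and Irf8 did not pass the test, at 0.04 and -0.17 (limma adjusted p = 0.9051 and 0.5836). Irf7, a factor that drives type I interferon genes, differed by -1.53 between the KO and WT M0 arrays.

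The genes with the pattern most like each Schlafen gene were found by Pearson's r over the 6 arrays among 6634 genes. The 6 points share their arrays and are set apart mainly by the M1 arrays, so high values are common: between 275 and 773 genes had r above 0.95 with a given member. For Slfn5 the closest were Irf9 (r = 0.9996), Cxcl10 (0.9972) and Ifit1 (0.9964). For Slfn2 they were Herc6 (0.9994) and Rap2c (0.9991), and for Slfn8 Gm4955 (0.9987), Fpr1 (0.9986) and Oas3 (0.9980).
For Slfn4 they were Slco3a1 (0.9991), Gpr141 (0.9991) and Pyhin1 (0.9989), and for Slfn3 9130017N09Rik (0.9993), Papd7 (0.9982) and Gpr141 (0.9976). For Slfn1 the closest was Flt3l (0.9992), followed by 2 transcripts without a gene symbol (0.9991 and 0.9989). Gpr141 was thus among the 3 closest genes of both intermediate forms.

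Probes and other Schlafen names set limits on the identity of these signals. The member probes lay on chromosome 11 of mm9, on the plus strand at 82935656 to 82935715 for Slfn1, 82883791 to 82883850 for Slfn2, 83028431 to 83028490 for Slfn3, 83002974 to 83003033 for Slfn4 and 82778192 to 82778251 for Slfn5, and on the minus strand at 82816883 to 82816942 for Slfn8. In the file annotation each of these probes listed transcripts of its own gene only. Exon and UTR positions were not used here.
A second Slfn5 probe, at 82775649 to 82775708, had M1 minus M0 differences of 1.55 in WT and 2.21 in KO, larger than the 1.04 and 1.62 of the first. Both probes were higher in M1 and lower in M2 than in M0 in both genotypes. In M1 they disagreed on the sign between genotypes, at 0.36 for the first probe and -0.06 for the second.

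The array also carried 3 other names that start with Slfn. Both Slfn9 probes listed transcripts of Slfn8 as well, and 1 of them also of Slfn10-ps, so their signal could not be assigned to 1 gene. Their M1 minus M0 differences were 1.66 and 2.16 in WT and 1.98 and 2.77 in KO, and their M2 minus M0 differences -1.49 and -1.84 in WT and -0.92 and -1.07 in KO. The Slfn8 probe had M1 minus M0 differences of 2.13 in WT and 2.52 in KO. Slfn14-ps was well above background on 0 of 6 arrays. Slfnl1, a Schlafen-like gene on chromosome 4, was well above background on 2 of 6 arrays, KO M1 and KO M2, with processed signals of 12.1 and 17.3.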

How the data were processed

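The authors deposited the scanner output of 6 arrays, whose spot intensity values come from Agilent Feature Extraction 10.7.3.1 on array design 014868, per the file headers. Its processed signal has the background removed and no scaling between arrays. A second deposited table holds log2 values, whose columns each matched their own array best (r at least 0.99886, medians 5.39 to 5.41) and whose centring is not stated there.

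Control spots and outlier-flagged spots (79 to 164 an array) were left out, spots of a probe were averaged, and the log2 of the array's 75th percentile was subtracted. The brightest probe stood for each gene name. An additive model of state and genotype was fitted with limma 3.58.1 in R 4.3.3 (2 residual df, prior df 1.88), with Benjamini-Hochberg adjustment over 19048 genes at 0.05, and checked on simulated data. Alternatives were median, quantile and normexp (offset 50) processing, the deposited table, all probes of a gene, other filters, a slide term, an intensity trend and each array left out. The rule for named genes took all members, every other Slfn gene, 8 interferon genes, the 3 effectors with the largest M1 difference and the 3 genes most like each member; a few of these are not reported here. Members and lists were chosen with earlier results of these data known.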

Additional observations from a re-analysis of the deposited data

Results flagged for a closer look

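For 3 Schlafen genes the KO minus WT difference had opposite signs in different states. How many of all tested genes showed such a change was not counted, so this count cannot be called unusual. With 1 array for each genotype and state, none of these differences was tested, and the M0 and M1 pairs crossed slides. For Slfn3 the differences in M0, M1 and M2 were -0.95, -0.19 and 0.06, so M2 lay 1.00 above M0 and 0.25 above M1. For Slfn8 they were -0.56, -0.16 and 0.08, so M2 lay 0.64 above M0 and 0.24 above M1. For Slfn5 they were -0.22, 0.36 and 0.02, so M1 lay 0.58 and M2 0.24 above M0. The M2 values of all 3 genes were within 0.10 of 0, and Slfn5 in M2 was at -0.01 with normexp background correction. In M1 Slfn5 was at 0.04 with median scaling. On its second probe the M0 and M1 differences were -0.73 and -0.06, with no change of sign between them.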

How the results depend on the processing

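The 6 calls of M1 over M0 held under every scaling, background, filter, probe, slide and prior setting in which the gene was tested; requiring all 6 arrays above background left Slfn4 out, with 5 of 5 called. Leaving out each array in turn gave 0 to 6 members called higher in M1 than in M0 (0 without WT M0, WT M1, KO M0 or KO M1) and 0 to 6 higher in M1 than in M2 (0 without WT M1 or KO M1). One residual degree of freedom is then left, and a lone array is assumed to vary like the others. For M2 against M0, 0 members were called lower in the main analysis, 1 with median scaling, 2 with normexp and quantile normalization, and 3 with an intensity trend in the variance prior. No member was called between genotypes in any setting, while the intensity trend called 32 of all genes there. Over all genes, M2 against M0 gave 16 calls, but 513 with median scaling, 138 with quantile normalization, 860 with normexp, 153 with the authors' deposited table, 274 with all 6 arrays above background, 1083 with the trend, and 0 with no filter, with a slide term or without any 1 array; M1 against M2 gave 4829, and 2210 with a slide term. Higher genes were 45.2% of calls for M1 against M0, 45.7% for M1 against M2 and 75% for M2 against M0, and with median scaling 58.6%, 64% and 46.8%; that scaling moved the median gene from 0.03 to 0.26 in the first. Over the settings the additive KO minus WT estimate ranged from -1.52 to -0.49 for Slfn1, from -1.36 to -0.37 for Slfn4 and from -0.10 to 0.19 for Slfn5. With a slide term, Slfn3 and Slfn8 stood at 0.06 and 0.08, which are the differences of the M2 pair alone. No paired analysis was possible because each genotype and state has 1 array and the labels give no replicate numbers. Signal over background limits the low values: normexp reduced the M1 minus M0 estimate of Slfn4 from 8.24 to 6.43 and its M2 minus M0 estimate from -2.46 to -0.63. The cause of these changes was not tested.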
